A study of Mus musculus with 12 samples.

Results

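The polypeptide GalNAc transferases, encoded by the Galnt genes, add the N-acetylgalactosamine (GalNAc) that starts every mucin-type O-glycan, the class of sugar chain that covers mucins. The 10 genes Galnt1, Galnt2, Galnt3, Galnt4, Galnt5, Galnt6, Galnt7, Galnt10, Galnt11 and Galnt12 were taken by symbol from a table of 55376 genes, and all 10 were listed there. Of these, 9 passed the filter on low counts (CPM, a count scaled to the size of its library, of at least 1 in at least 4 libraries) and were tested among 15952 genes. Galnt2 did not pass.

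Gene expression was measured by RNA-Seq of total RNA from the proximal part of the colon, flushed and frozen as whole tissue, of 12 mice aged 12 weeks, with 1 library per mouse. The 6 EPR fl/fl mice, the controls, carried on both alleles loxP sites around the promoter and exon 1 of EPR, a long noncoding RNA of epithelia that the table lists as Smim31. The 6 EPR cKO mice carried the same floxed alleles and in addition the CDX2P-NLS Cre transgene, in which a human CDX2 promoter drives Cre in epithelial cells from the end of the ileum through the cecum and colon. Controls had no Cre transgene, so that Cre itself and the loss of EPR cannot be told apart. The tissue was not sorted, and fewer cells of a type and less RNA per cell cannot be told apart either.

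In the Golgi, GalNAc transferases use UDP-GalNAc to modify serine and threonine. Several of them act first, on bare protein. Others, Galnt7 and Galnt10 among them, prefer protein that already carries GalNAc and fill in the sites between. Core enzymes such as the core 1 synthase C1galt1 and the core 3 synthase B3gnt6 then extend the sugar. In the colon the main substrate is Muc2, the gel-forming mucin of goblet cells.

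Total counts ran from 13093904 to 33211041 per library. Smim31 was at 21.3 to 58.1 CPM in EPR fl/fl and at 0 to 0.424 CPM in EPR cKO, so that the targeted gene matched the label of all 12 libraries. CPM values use TMM library sizes (edgeR's trimmed mean scaling). The epithelium markers were all 12 above the filter, as were the 12 smooth muscle markers, and tissue composition varied: a composition score, the mean log2 CPM of the epithelium list minus that of the smooth muscle list, ran from 1.01 to 1.72 in EPR fl/fl and from 0.0365 to 3.55 in EPR cKO (two-sided exact permutation p = 0.0628, n = 6 each). EPR cKO 1 had the lowest score of the 12 libraries, and the other 5 EPR cKO libraries (2.01 to 3.55) all lay above EPR fl/fl. Summed smooth muscle CPM was 11608 in EPR cKO 1, against 3910 to 6716 in EPR fl/fl. Results are therefore given with and without EPR cKO 1 where it mattered.

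The expression of the family in the control colon was set out first. Levels between genes were compared as CPM per kilobase of summed exon length. In EPR fl/fl, Galnt4 was at 58.8 ± 5.52, Galnt7 at 56.0 ± 9.38, Galnt12 at 50.0 ± 5.15 and Galnt6 at 42.5 ± 4.17 CPM per kilobase (SD, n = 6). These 4 genes held 70.9% ± 1.14 of the family sum. The ranges of neighbors in this order overlapped, and Galnt4 was above Galnt7 in 4 of 6 libraries, so that neighbors were not separated by the spread between mice. Galnt4 did not overlap with Galnt6. Each library of Galnt6 was above each library of Galnt10, the next gene.

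A middle tier followed, with Galnt10 at 27.3 ± 4.52, Galnt1 at 23.8 ± 2.75 and Galnt3 at 15.8 ± 2.71 CPM per kilobase in EPR fl/fl. Galnt1 is among the broadly expressed initiating enzymes, and Galnt3 is known for glycosylating the phosphate hormone FGF23. Galnt5 was at 11.8 ± 1.70 and Galnt11, known for its action on Notch and on receptors of the kidney, at 5.93 ± 0.790 CPM per kilobase. Galnt10 and Galnt1 overlapped, as did Galnt1 and Galnt3, and Galnt3 and Galnt5. Galnt5 and Galnt11 did not.

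Galnt2 could not be placed. It is annotated at chromosome 8, 124231391 to 124345722 (mm10, plus strand), and 93.7% of its 4113 exon bases are also exons of Gm20388, a gene model on the same strand. The 259 bases of Galnt2 left to itself were its first exon, 124231391 to 124231649. Every base of Gm20388 is shared with another gene, and its count was 0 in all 12 libraries. Galnt2 had 14 to 33 reads per library in EPR fl/fl and 12 to 19 in EPR cKO, or 0.939 ± 0.137 CPM in the controls and 0.752 ± 0.204 after deletion (SD, n = 6). Scaled to the 259 unshared bases, this was 3.63 ± 0.529 and 2.90 ± 0.789 CPM per kilobase. How reads in shared exons were treated is not given in the sources used here, so these values give no level of Galnt2, and the low count is no sign of low expression.

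The other members share no exon base with a gene on the same strand. On the opposite strand, exons of other genes cover 5.31% of the exon bases of Galnt5 (by Ermn), 11.4% of Galnt6 (by Galnt6os), 2.18% of Galnt7 (by AW046200) and 5.57% of Galnt11 (by E130116L18Rik). Galnt6os itself is an antisense RNA. Without a stated strand setting, reads there cannot be assigned with certainty.

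The sequence before the transcription start sites is shown for the members that the results turn on, Galnt5, Galnt7 and Galnt10, and for others with an entry. RefSeq windows of build GRCm38.p6 matched 6 of the 10 members. In the 250 bases before the RefSeq start, Galnt5 held 3 CpG dinucleotides, fewer than each of the other 5 members (13 to 34), where the median of 32851 windows was 6. Galnt3 held 34, Galnt6 22, Galnt10 20, Galnt7 19 and Galnt11 13, taking for each gene the start nearest to that in the table. The RefSeq starts of Galnt5 and Galnt3 lie 271 and 201 bases inside the gene as the table gives it, so that these windows depend on the annotation. The letters TATAAA and CCAAT, searched on both strands, were in none of these 6 windows (in 12.4% and 33.8% of all windows), and GGGCGG was in those of Galnt3, Galnt6, Galnt7 and Galnt11 (in 32.7% of all windows). The 30 bases just before each RefSeq start are shown 5′ to 3′ on the strand of the gene, with CpG in capitals, to let this difference in CpG be seen.
Galnt5, chr2:57998125-57998154 (+): agccagtgtatactagggtttagccagggc
Galnt7, chr8:57653056-57653085 (−): gggggaaggaggaggaggaggaggagggcc
Galnt10, chr11:57645412-57645441 (+): tccccCGcCGgCGagcagCGgaagtgcCGc
Galnt3, chr2:66124794-66124823 (−): gCGgggCGCGgggctggCGCGcaggCGCGg
Galnt6, chr15:100729377-100729406 (−): CGacaggaccCGccctggaccCGccctccc
Galnt11, chr5:25222842-25222871 (+): gtgaCGtcatcctCGgaggCGagggCGtgc
Galnt5 has no CpG in these 30 bases, and neither has Galnt7, whose CpG lie farther upstream.

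**Figure D1:**
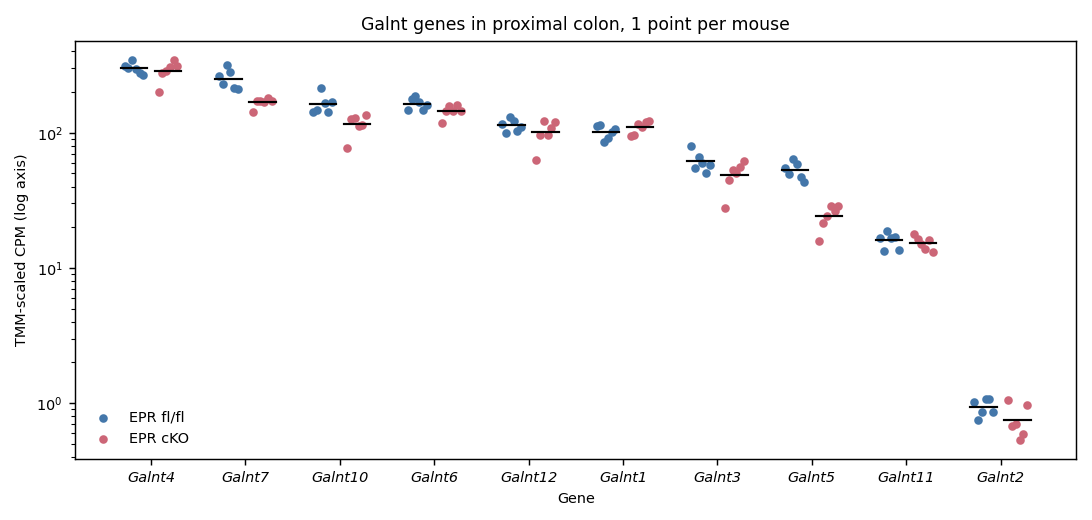
TMM-scaled CPM (log axis) of the 10 Galnt genes, with 1 point per mouse for 6 EPR fl/fl (blue) and 6 EPR cKO (red) libraries and a black line at each group mean. The groups of Galnt5, Galnt7 and Galnt10 do not overlap, and Galnt2, with 93.7% of its exon bases shared with another gene model, lies near 1 CPM.

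The comparison of EPR cKO with EPR fl/fl asked which of these enzymes differed when EPR was deleted. By edgeR's quasi-likelihood test with Benjamini-Hochberg adjustment over all tested genes, 2 of the 9 tested members, Galnt5 and Galnt7, fell at an adjusted p under 0.05, and 0 rose. Of all tested genes, 1.57% were lower and 0.884% higher by this rule, 2.46% in either direction. At an unadjusted p under 0.05 the members numbered 3 lower and 0 higher, against 7.12% and 11.1% of all tested genes. DESeq2 gave 3 lower and 0 higher (2.97% and 2.77% of genes with an adjusted p). The limma-voom fit gave 2 lower and 0 higher (2.05% and 1.1%), and with quality weights 3 lower and 0 higher (11.9% and 8.6%). The log2 fold changes of the 9 members ran from −1.12 to 0.11 with a median of −0.19, where the median of all tested genes was 0.02, and 8 of 9 were negative, against 47.2% of all tested genes. The study itself names both genes. It counts Galnt7 among the enzymes strongly reduced in these libraries, and reports that EPR bound the Galnt5 promoter in purified crypts. Among its other evidence, it reports that long-range contacts of the Galnt7 promoter differed in EPR cKO crypts. The members were chosen with earlier results of these data known, so that their direction here is not independent evidence. At the stricter thresholds of the study, which add a minimum fold change to an adjusted p under 0.001, 0 members were lower, against 0.169% of all tested genes. The count at an adjusted p under 0.05 was 3 without EPR cKO 1, with Galnt10 added, where 14.4% of all tested genes were lower and 7.44% higher.

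Galnt5 showed the largest change among the tested members. It lies at chromosome 2, 57997884 to 58045860, on the plus strand, and encodes a GalNAc transferase found mainly in digestive organs. Galnt5 was lowest at 43.2, with a median of 51.9 and a highest value of 63.4 CPM, in EPR fl/fl. In EPR cKO the lowest value was 15.7, the median 25.4 and the highest 28.8 CPM. All 6 EPR cKO libraries were below all 6 EPR fl/fl libraries, with EPR cKO 1 lowest. Mean CPM was 52.7 ± 7.60 against 24.3 ± 5.03, and the log2 fold change was −1.12 (SE 0.14, 95% interval −1.43 to −0.81, edgeR adjusted p = 0.00108), a fall of 53.9%. The adjusted p of Galnt5 stayed under 0.05 in the 9 alternatives (up to 0.0129) and in the 12 leave-one-out fits (up to 0.00582). Of the 6 members with a RefSeq window, it had the fewest CpG there, though 29.03% of all windows had fewer. A link between CpG and the change was not tested.

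Galnt7, one of the follow-up enzymes that prefer GalNAc-bearing protein, was one of the most abundant members. It lies at chromosome 8, 57523828 to 57653031, on the minus strand. In EPR fl/fl it was at 209 to 315 CPM with a median of 245, and in EPR cKO at 142 to 180 with a median of 172. The groups did not overlap, and the spread was smaller in EPR cKO. Mean CPM was 252 ± 42.2 against 168 ± 13.4, and the log2 fold change was −0.58 (SE 0.11, 95% interval −0.81 to −0.35, edgeR adjusted p = 0.0117), or a fall of 33.3%. The adjusted p of Galnt7 was up to 0.0491 in the alternatives, with the replicate block, and up to 0.0454 in the leave-one-out fits.

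Galnt10, also a follow-up enzyme, did not overlap between the groups but missed the threshold. It lies at chromosome 11, 57645442 to 57787514, on the plus strand. Its values were 142 to 213 CPM with a median of 156 in EPR fl/fl, and 77.7 to 134 with a median of 120 in EPR cKO. The log2 fold change was −0.50 (SE 0.14, 95% interval −0.79 to −0.21, edgeR adjusted p = 0.0752). Its adjusted p was 0.0132 without EPR cKO 1, and under 0.05 in 3 of the 9 alternatives, which were DESeq2 (0.0140), limma-voom with quality weights (0.0193) and the composition covariate (0.0374). Over the alternatives and the leave-one-out fits, it ran from 0.0132 to 0.168. Among the 9 tested members, 3 were separated as lower and 0 as higher in EPR cKO, against 1.47% and 1% of all tested genes.

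The 6 remaining tested members overlapped between the groups, with edgeR adjusted p from 0.280 to 0.809. Galnt3 (chromosome 2, 66082766 to 66124994) was at 50.0 to 79.9 CPM in EPR fl/fl and 27.7 to 62.1 in EPR cKO, with a log2 difference of −0.32 (95% interval −0.69 to 0.04). Galnt6 (chromosome 15, 100691813 to 100729376), an enzyme of epithelia, was at 147 to 187 and 117 to 161 CPM, with a log2 difference of −0.19 (−0.37 to 0.0028). Galnt12 (chromosome 4, 47091909 to 47123070), whose human counterpart has been linked to colorectal cancer risk, was at 100 to 131 and 62.8 to 122 CPM, with a log2 difference of −0.18 (−0.48 to 0.12). In each of these 3 genes EPR cKO 1 was the lowest of the 12 libraries.

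Galnt4 (chromosome 10, 99108159 to 99113247), a single-exon gene for an enzyme that also acts on GalNAc-bearing protein, was at 267 to 347 CPM in EPR fl/fl and 200 to 347 in EPR cKO. Its log2 difference was −0.06 (95% interval −0.31 to 0.19), and its sign turned without EPR cKO 1 (0.013) and with limma-voom with quality weights (0.0052). Galnt11 (chromosome 5, 25222882 to 25265918) was at 13.4 to 18.9 and 13.2 to 17.7 CPM, with a log2 difference of −0.06 (−0.29 to 0.17), which turned positive (0.057) with the composition covariate. Galnt1, on chromosome 18, was at 85.1 to 114 and 95.3 to 122 CPM. Its log2 difference of 0.11 (−0.09 to 0.31) was the sole positive value among the 9, and turned negative (−0.019) with the composition covariate.

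**Figure D2:**
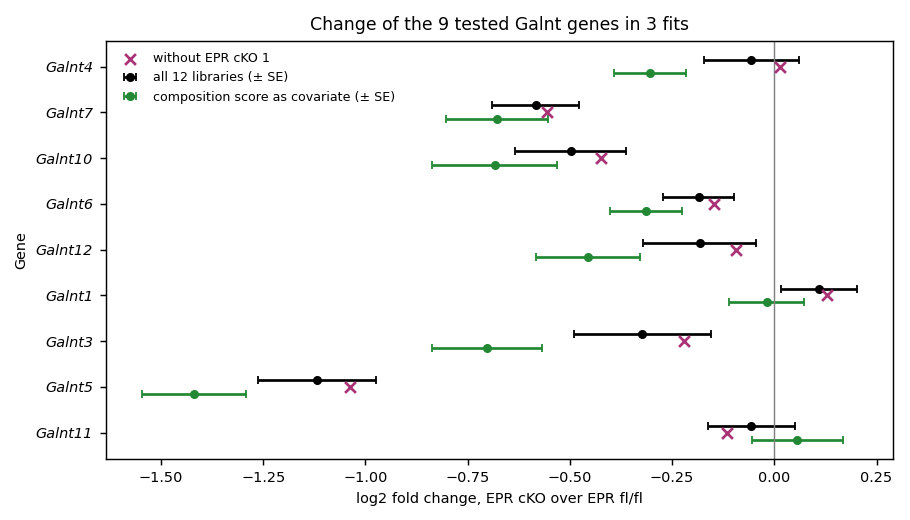
Log2 fold change of EPR cKO over EPR fl/fl for the 9 tested Galnt genes from edgeR with all 12 libraries (black, ± SE), with the composition score as a covariate (green, ± SE) and without EPR cKO 1 (crosses). Galnt5 is farthest from 0 in each of the 3 fits, and Galnt3 moves from −0.32 to −0.70 with the covariate.

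The make-up of the family was compared next, as the share of each member in the summed CPM per kilobase of the 10 genes within a library. This measure does not depend on library scaling, but the shares sum to 100%, so that a lower share of one gene makes others higher. Exact permutation tests over all assignments of libraries to groups were two-sided and were run on 10 shares without adjustment, and the smallest p they can give is 0.00216. The summed level of the family was 292 ± 26.9 CPM per kilobase in EPR fl/fl, against 244 ± 33.3 in EPR cKO (SD, n = 6). It was 181 in EPR cKO 1 and 238 to 270 in the other EPR cKO libraries. These overlapped with EPR fl/fl (263 to 338), and the difference in this sum was not tested.

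Galnt5 went from 4.03% ± 0.271 of the family to 2.21% ± 0.258 (exact p = 0.00216). Its share was 3.56% to 4.35% in EPR fl/fl and 1.94% to 2.62% in EPR cKO, with no overlap. Galnt4 went from 20.1% ± 0.722 to 23.1% ± 1.48 and Galnt1 from 8.23% ± 1.45 to 10.6% ± 0.920 (exact p = 0.00216 for each), and both shares were higher in all 6 EPR cKO libraries than in any EPR fl/fl library. For comparison, the ratio of any tested gene to the family sum was separated as higher for 15.9% of tested genes and as lower for 0.545%. The CPM of Galnt4 and Galnt1 had not passed the test. With all tested genes of the family in the denominator, the shares of Galnt4 overlapped (exact p = 0.00433).

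Galnt7 went from 19.1% ± 1.54 to 15.4% ± 1.15 of the family (exact p = 0.00433), and its groups overlapped (17.1% to 20.8% against 14.2% to 17.4%). With either EPR cKO 1 or EPR fl/fl 6 left out, its shares no longer overlapped, so that 2 members in place of 1 were separated as lower. Galnt10 went from 9.33% ± 0.978 to 7.89% ± 0.722 (exact p = 0.0195). The exact p was 0.195 to 0.504 for Galnt3, Galnt6, Galnt11 and Galnt12. The share of Galnt2 is not reported, for the reason given above.

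The order of levels was then compared between the groups. In EPR cKO, Galnt7 was at 37.4 ± 2.99 CPM per kilobase, beside Galnt6 at 37.4 ± 3.90 and on average below Galnt12 at 44.0 ± 9.48. The ranges of Galnt7 (31.5 to 40.1) and Galnt12 (27.5 to 53.2) overlapped, and in EPR cKO 1 Galnt7 was above Galnt12. Galnt1 (25.6 ± 2.68) was above Galnt10 (19.3 ± 3.43) in all 6 EPR cKO libraries, whereas in EPR fl/fl Galnt10 was above Galnt1 in 4 of 6. Galnt5 (5.44 ± 1.13) was below Galnt11 (5.71 ± 0.612) in 4 of 6 EPR cKO libraries, whereas in EPR fl/fl it was above in all 6.

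**Figure D3:**
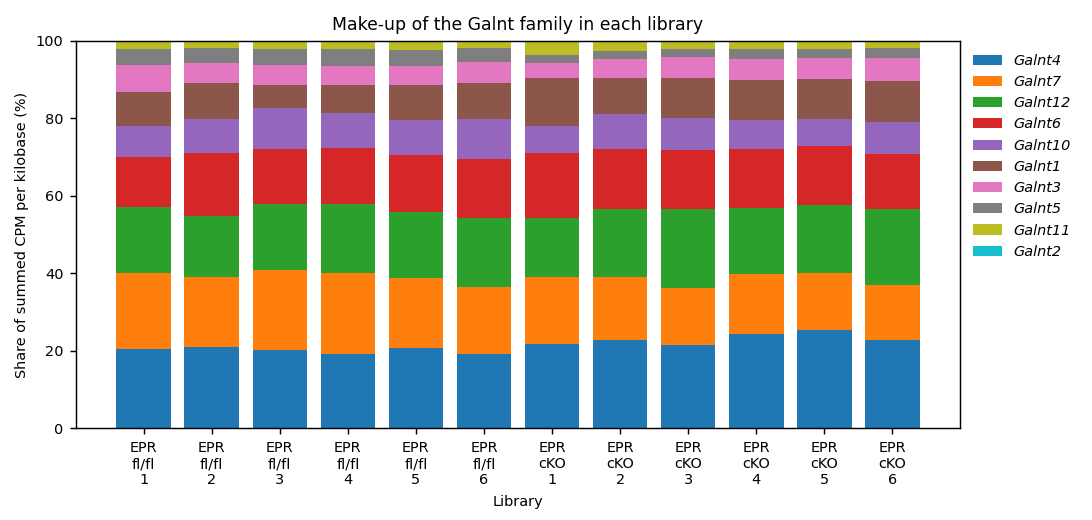
Share of each Galnt gene (%) in the summed CPM per kilobase of the 10 genes, in each of the 12 libraries. Galnt4, Galnt7, Galnt12 and Galnt6 fill 70.9% of the bars on average in EPR fl/fl, against 71.8% in EPR cKO, while the Galnt5 band is narrower in all 6 EPR cKO libraries.

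The relation of the members to tissue composition was examined in a fit with both group and composition score. With edgeR, 4 of the 9 tested members rose with the score at an adjusted p under 0.05, where 13.1% of all tested genes rose and 18.6% fell with it. They were Galnt3 (log2 change of 0.29 per unit of score, SE 0.07, adjusted p = 0.00424), Galnt5 (0.24, SE 0.06, 0.00896), Galnt12 (0.21, SE 0.06, 0.0198) and Galnt4 (0.20, SE 0.04, 0.00328). The other 5 lay between −0.10 (Galnt11) and 0.15 (Galnt10), with adjusted p from 0.0726 to 0.349, and 0 members fell with the score. These 4 calls rested on 1 library. Without EPR cKO 1 the count was 0, with members from −0.14 to 0.19 per unit and adjusted p from 0.290 to 0.998, where 0.663% of all tested genes rose and 4.56% fell. The remaining EPR cKO libraries lie above all EPR fl/fl libraries in score, so that this fit compares groups whose scores do not overlap.

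With the score as a covariate, 4 members were lower in EPR cKO at an adjusted p under 0.05 (1.45% of all tested genes) and 0 higher (0.533%). Galnt5 was at −1.42 (SE 0.13, edgeR adjusted p = 9.39e-05), Galnt3 at −0.70 (SE 0.13, 0.0168), Galnt10 at −0.68 (SE 0.15, 0.0374) and Galnt7 at −0.68 (SE 0.12, 0.0145). The call of Galnt3 appeared in this fit alone, and not in the other 8 alternatives or in the 12 leave-one-out fits. Only EPR cKO 1 places an EPR cKO library at or below the scores of EPR fl/fl in this fit.

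**Figure D4:**
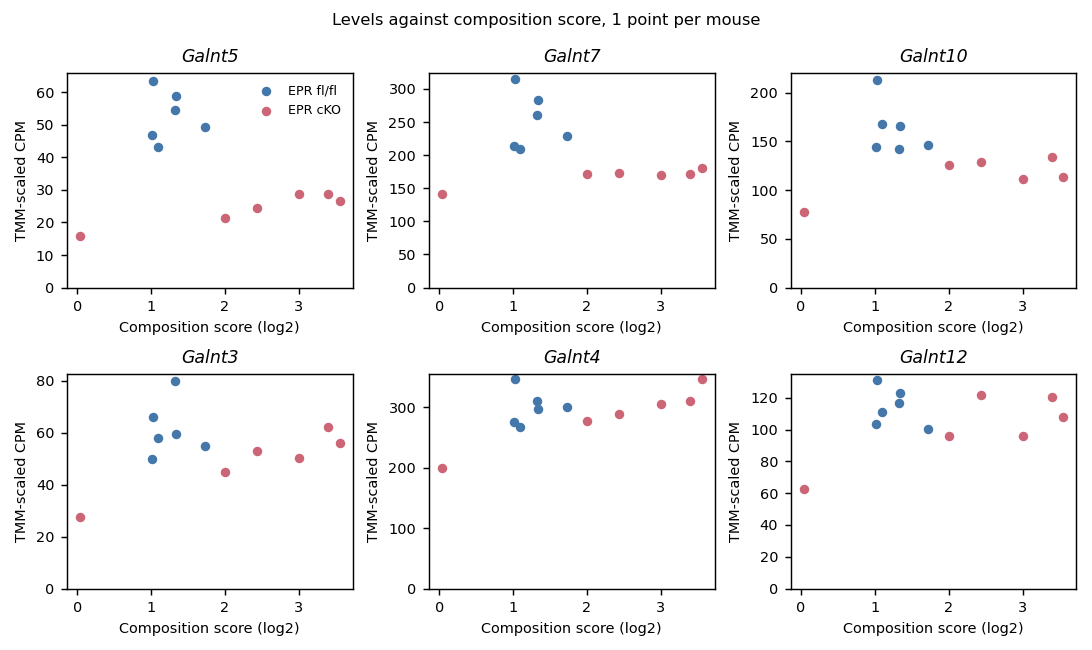
TMM-scaled CPM of 6 Galnt genes against the composition score (log2, epithelium minus smooth muscle), 1 point per mouse, EPR fl/fl in blue and EPR cKO in red. EPR cKO 1 stands alone at a score of 0.0365, and all Galnt5 points of EPR cKO lie below all those of EPR fl/fl.

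The other 9 genes of the family were then examined. Of these, 6 were tested, and Galnt9, Galnt14 and Galntl5, named after their values were seen, were below the filter, with Galntl5 at 0 in all libraries. All 6 tested genes had negative log2 fold changes in EPR cKO (median −0.59), with 0 called by edgeR, 2 at an unadjusted p under 0.05, 0 called by DESeq2 and by limma-voom, and 5 as lower by limma-voom with quality weights (11.9% of all tested genes). Without EPR cKO 1, edgeR called 5 as lower (14.4% of all tested genes). Galnt15 was at 7.58 to 17.4 CPM in EPR fl/fl and 2.90 to 15.3 in EPR cKO (log2 fold change −0.96, adjusted p = 0.207, and −1.49 with an adjusted p of 0.00266 without EPR cKO 1). Galnt13, an enzyme of neurons, was at 1.17 to 3.01 and 0.319 to 4.18 CPM (−0.71, adjusted p = 0.520, and −1.65 with an adjusted p of 0.00995 without EPR cKO 1). For both, EPR cKO 1 was the highest EPR cKO library. With the composition covariate, the sign turned for Galnt17 (0.29) and Galnt18 (0.095).

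Galnt13, Galnt15, Galnt16, Galnt17 and Galnt18, the last 2 named after their values were seen, fell with the score, at −1.04 to −0.62 per unit (edgeR adjusted p up to 0.000772). Without EPR cKO 1, Galnt13 (−1.23, adjusted p = 0.0327), Galnt16 (−0.87, 0.0475) and Galnt18 (−0.83, 0.0410) still fell with it. Galntl6 rose with the score (0.30, adjusted p = 0.0311) and was the sole gene of this list lower in EPR cKO with the covariate (−0.87, adjusted p = 0.0400). Without EPR cKO 1, its change with the score was 0.21 (adjusted p = 0.560), and Galnt15 (−0.45, 0.352) and Galnt17 (−0.66, 0.0946) did not pass either.

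The marker lists of smooth muscle, of fibroblasts, and of enteric neurons and glia had 0 genes called by edgeR with all libraries (0 at an unadjusted p under 0.05, 0 by DESeq2 and by limma-voom). With quality weights, limma-voom called 12 of 12, 4 of 8 and 3 of 9 of their genes lower (11.9% of all tested genes). Without EPR cKO 1, edgeR called 12 of 12, 4 of 8 and 6 of 9 lower (14.4% of all tested genes). Of 6 adipocyte markers, edgeR called 0 with all libraries (median log2 fold change −1.47, 5 lower at an unadjusted p under 0.05, 1 by DESeq2, 0 by limma-voom, 6 with quality weights) and 6 as lower without EPR cKO 1. Their summed level was 285 to 1049.5 CPM in EPR fl/fl and 44.2 to 593 in EPR cKO, with EPR cKO 1 highest there. The summed level of the neuron and glia list was 35.9 to 73.3 CPM in EPR fl/fl, and 13.7 to 123 in EPR cKO with EPR cKO 1 highest. The part of these lists in the Galnt results was not tested.

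**Figure D5:**
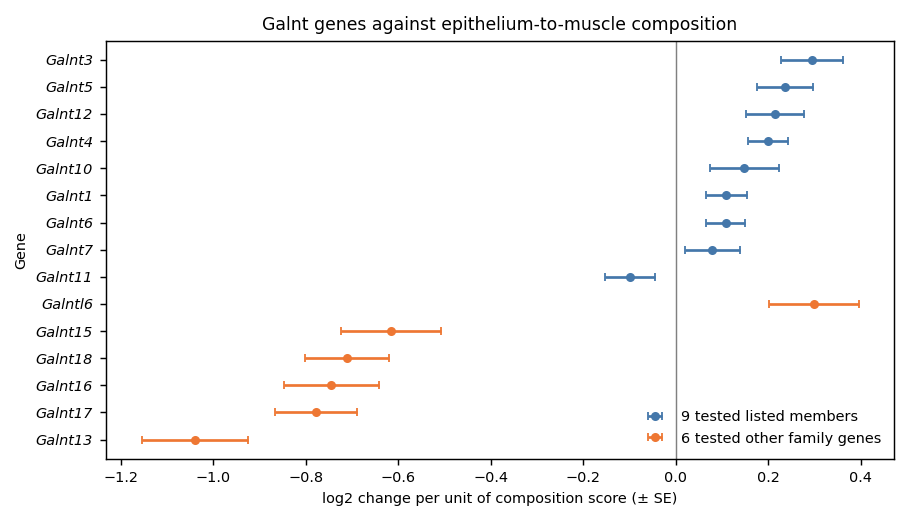
Log2 change per unit of composition score (± SE) from edgeR for the 9 tested listed members (blue) and the 6 tested other family genes (orange). Members lie between −0.10 and 0.29, while Galnt13, Galnt15, Galnt16, Galnt17 and Galnt18 lie between −1.04 and −0.62.

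Goblet cell markers also differed between the groups. Whether they varied with Galnt5 and Galnt7 from library to library was not tested. Of 12 goblet genes, 8 fell (1.57% of all tested genes) and 4 did not pass (edgeR), with a median log2 fold change of −0.81. Without EPR cKO 1, 11 fell (14.4% of all tested genes), and with the composition covariate 8 fell (1.45%). DESeq2 called 10 lower (2.97% of genes with an adjusted p), limma-voom 9 (2.05%) and limma-voom with quality weights 12 (11.9%). The summed level of the list, which includes Muc2, was 13614 to 28790 CPM in EPR fl/fl and 6306 to 8714 in EPR cKO. In EPR cKO 1, the lowest of its group in Galnt5 and in Galnt7, this sum was 8653 CPM. The enterocyte list had 0 of 10 genes called by edgeR (2 lower and 3 higher at an unadjusted p under 0.05, 0 by DESeq2 and by limma-voom, 1 lower with quality weights), with a summed level of 10499 to 16436 and 14664 to 23280 CPM. The part of either list in the Galnt results was not tested. Muc2 was at 4083 to 14598 CPM in EPR fl/fl and 1073 to 2028 in EPR cKO, and the number of Muc2 reads per read of the 10 members went from 6.38 ± 2.18 to 1.79 ± 0.546 (SD, n = 6), with ranges of 3.71 to 10.2 and 0.951 to 2.61.

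The supply of UDP-GalNAc was followed through 10 genes, all tested. Gfpt1, the gene of the enzyme that commits sugar to the hexosamine pathway, fell (edgeR, where 1.57% of all tested genes were lower). The other 9 did not pass, with a list median of 0.01. DESeq2 called 1 of the 10 lower (2.97% of genes with an adjusted p), limma-voom 1 (2.05%) and limma-voom with quality weights 2 (11.9%). Gfpt1 was at 842 to 1201 CPM in EPR fl/fl and 649 to 779 in EPR cKO, with no overlap, a log2 fold change of −0.52 (SE 0.11, edgeR adjusted p = 0.0219). Pgm3, a later enzyme of this pathway that shares 38.5% of its exon bases with a gene on the opposite strand, was at 39.8 to 51.6 and 26.2 to 47.4 CPM (−0.21, adjusted p = 0.364). With the composition covariate, Pgm3 was at −0.49 (edgeR adjusted p = 0.00884). In that fit, 2 of the 10 genes were lower (1.45% of all tested genes).

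The enzymes that act on the GalNAc once it is in place were a list of 5. Of these, 4 were tested, and B3gnt6 and C1galt1c1 fell by edgeR, where 1.57% of all tested genes were lower. At an unadjusted p under 0.05, 4 were lower (7.12% of all tested genes). DESeq2 called 3 lower (2.97% of genes with an adjusted p), limma-voom 3 (2.05%) and limma-voom with quality weights 3 (11.9%). St6galnac1 was below the filter, with at most 1 read in any library. B3gnt6 was at 17.9 to 38.9 CPM in EPR fl/fl and 2.81 to 6.52 in EPR cKO (−2.75, SE 0.23, edgeR adjusted p = 4.33e-05). C1galt1c1, the chaperone of the core 1 synthase, was at 53.9 to 65.2 and 29.5 to 47.9 CPM (−0.50, SE 0.11, adjusted p = 0.0287). C1galt1 was at 307 to 394 and 197 to 294 CPM (−0.40, SE 0.10, adjusted p = 0.0566, 0.00779 without EPR cKO 1 and 0.00573 with the composition covariate), and St6galnac2, which adds sialic acid to GalNAc, had a log2 fold change of −0.35 (adjusted p = 0.222). Among mucin substrates, 10 of 12 listed genes were in the table and 6 were tested. Muc2 (−2.19, adjusted p = 0.000741) and Muc5b (−2.30, adjusted p = 0.00289) fell by edgeR, against 1.57% of all tested genes. For these mucins DESeq2 called 3 lower (2.97% of genes with an adjusted p), limma-voom 2 (2.05%) and limma-voom with quality weights 2 (11.9%). Muc4 (−0.65, 0.132, and 0.0481 without EPR cKO 1) and Muc13 (−0.25, 0.216) did not pass. On the same log2 scale, the change of Galnt5 lay between those of C1galt1c1 and Muc2, and that of Galnt7 was near that of C1galt1c1. The differences between these changes were not tested.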

How the data were processed

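RNA-Seq of proximal colon gave 12 libraries, 6 EPR fl/fl and 6 EPR cKO, grouped by sample title. The authors prepared Illumina Stranded Total RNA libraries depleted of ribosomal RNA, sequenced paired ends on an Illumina instrument, trimmed reads with Trimmomatic, mapped them to mm10 with STAR 2.5.3a and counted them per Ensembl gene with featureCounts. The deposited values are raw counts per gene. The strand setting and the treatment of reads with several targets are not given in the sources used here. Columns without a sample numbered 0. Nothing states that mice of a group came from separate litters, so p-values measure the spread between these mice.

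Counts were tested in R 4.3.3 with edgeR 4.0.16 (quasi-likelihood F test, TMM, no covariate, genes with CPM of at least 1 in at least 4 libraries), adjusted by Benjamini-Hochberg over all tested genes. The SE was the absolute log2 fold change divided by the square root of F. Alternatives were DESeq2 size factors, total counts, no low-count filter, filterByExpr, DESeq2 1.42.0, limma-voom with and without quality weights (limma 3.58.1), the replicate block, the composition covariate and leaving out each library. The script was tested on simulated data. Log2 CPM for the score used a prior count of 2. Exon sharing was read from the deposited exon coordinates, and start-site sequences from RefSeq (GRCm38.p6).

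Named genes were the 10 members, up to 4 genes with the smallest adjusted p from each fixed list, genes overlapping a member's exons, Smim31 and Muc2, unless marked as named after their values were seen. The members and lists were chosen with earlier results of these data known. Sequences of proteins were not used here.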

Additional observations from a re-analysis of the deposited data

Results flagged for a closer look

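In each group of 6, the highest and lowest library was compared with the nearest other one. Among 40 sets of 6 values (CPM and family share of 10 genes in each group), 4 had a library whose gap exceeded Dixon's 95% critical value, where chance gives about 2. Galnt7 was at 142 CPM in EPR cKO 1, where the rest of that group had 170 to 180. Galnt10 was at 213 CPM in EPR fl/fl 3, against 142 to 168. The share of Galnt3 was 6.91% of the family in EPR fl/fl 1, against 4.90% to 5.47%, and that of Galnt12 was 15.6% in EPR fl/fl 2, against 17.0% to 17.8%.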

How the results depend on the processing

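Of 498 values recomputed under an alternative, 481 kept their direction and their side of the threshold, or stayed within 1.5 times for counts. With the composition covariate, the count of members lower in EPR cKO went from 2 to 4 and that past the thresholds of the study from 0 to 1 (Galnt5), and Galnt1 (−0.019) and Galnt11 (0.057) changed sign. Galnt4 changed sign with limma-voom with quality weights (0.0052) and without EPR cKO 1 (0.013), and ran from −0.12 to 0.013 over the leave-one-out fits. Leaving out 1 library each gave 2 to 3 lower members and 0 higher. It gave 0 (without EPR cKO 1) to 6 members rising with the composition score, with 0 falling. It gave 1 to 2 members with a separated lower share, and 2 with a separated higher share. With all tested family genes in the denominator, 1 share was separated as higher (Galnt1) and 2 as lower (Galnt5 and Galnt7). The share of Galnt6 reached an exact p of 0.0498 without EPR fl/fl 2. The labels give same-numbered mice only a number in common, and whether they were handled together is not stated. Correlations of their deviations across genes ran from −0.260 to 0.335 and were not tested. The replicate block left 2 members lower and 4 rising with the score, and changed no call of a member. The alternatives with unshared exon length and without Galnt2 were chosen after seeing the data and gave the same counts of separated shares (2 higher and 1 lower). The causes of these moves were not tested. Galnt2, with 93.7% of its exon bases shared and 12 to 33 reads per library, gives no level. The tested members had at least 227 reads in each library.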
